A study of Mus musculus with 16 samples.

Results

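The genes described here are the Cep genes of the mouse, named for centrosomal proteins, and their peaks in 3 CUT&RUN lists for the transcription factors Foxn3, Foxn4 and Rfx3. CUT&RUN releases DNA next to an antibody-bound protein with micrococcal nuclease, and the released DNA is sequenced. Members are 34 of the 21887 RefSeq protein-coding genes, chosen among those whose symbol is Cep followed by digits and at most 1 letter. A gene was called bound in a list when the midpoint of a peak lay within 1 kb of either annotated end of the gene. Peaks of 1 or more lists lay at 14 of the 34 (41.2%, against 12.8% of all protein-coding genes), and 20 were bound in none.

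All libraries came from retinas of CD-1 mice, an outbred strain, taken on embryonic day 16, with 300000 cells per assay, and no allele or treatment of the animals is named. Retinas were pooled before they were dissociated, so a library does not stand for a single embryo. The study has 16 libraries, of which 4 used an antibody to Foxn3 (in 2 experiments), 2 an antibody to Foxn4 and 2 an antibody to Rfx3, with 6 rabbit and 2 mouse immunoglobulin G (IgG) control libraries. Nuclease digestion took 1 h in the Foxn3, Rfx3 and rabbit IgG assays and about 12 h in the Foxn4 and mouse IgG assays, so antibody and digestion time cannot be told apart for Foxn4. Each antibody has a single list, of 2794 peaks for Foxn3, 2956 for Foxn4 and 3981 for Rfx3. How libraries were combined is not stated, single libraries and IgG controls were not analysed here, and no value below has a spread between replicates or a test. Read depth is unknown from the lists. The lists hold positions rather than expression, so the tissue label was not set against marker levels.

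The centrosome is built around a pair of centrioles and organises microtubules. In a cell that makes a cilium, the older centriole docks at the membrane by its distal appendages and becomes the basal body from which the ciliary axoneme grows. Retinal progenitors carry a primary cilium, and the photoreceptor outer segment is a modified cilium. Rfx3 belongs to the RFX family, which binds the X-box, an inverted repeat found at many ciliary genes. Foxn3 and Foxn4 are forkhead factors, and members of the Foxn group are known to bind a shorter forkhead-like (FHL) sequence as well as the usual forkhead site.

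Sequence from 250 bases upstream of a listed start site is printed for 6 members that show the range of the data: Cep112, with the highest score of all members in the Foxn3 and Rfx3 lists; Cep41, bound at its start site but not at an annotated end; Cep89, the bound distal appendage gene; Cep128 and Cep85, bound in every list; and Cep57, bound in none. Sequences are from RefSeq, build GRCm38.p6, 5′ to 3′ on the strand of the gene. Capitals mark matches to the X-box forms given further on, to the X-box arm GTTGCC and to the FHL core GACGC, each on either strand.
Cep112, chr11:108425016-108425265, plus strand: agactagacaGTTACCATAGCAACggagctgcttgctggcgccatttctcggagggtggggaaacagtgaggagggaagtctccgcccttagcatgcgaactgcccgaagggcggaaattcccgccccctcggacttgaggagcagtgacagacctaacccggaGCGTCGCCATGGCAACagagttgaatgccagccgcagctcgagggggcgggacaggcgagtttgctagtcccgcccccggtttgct
Cep41, chr6:30693750-30693999, minus strand: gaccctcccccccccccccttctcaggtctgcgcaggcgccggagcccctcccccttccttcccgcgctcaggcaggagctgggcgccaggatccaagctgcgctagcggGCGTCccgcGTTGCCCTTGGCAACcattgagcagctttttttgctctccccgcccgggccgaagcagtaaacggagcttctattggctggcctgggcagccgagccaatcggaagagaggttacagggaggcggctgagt
Cep89, chr7:35396813-35397062, plus strand: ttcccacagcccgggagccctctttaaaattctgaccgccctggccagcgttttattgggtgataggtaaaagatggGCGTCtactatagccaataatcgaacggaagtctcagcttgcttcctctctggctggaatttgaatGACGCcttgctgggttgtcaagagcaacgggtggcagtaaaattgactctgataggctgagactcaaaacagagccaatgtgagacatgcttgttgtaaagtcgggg
Cep128, chr12:91384410-91384659, minus strand: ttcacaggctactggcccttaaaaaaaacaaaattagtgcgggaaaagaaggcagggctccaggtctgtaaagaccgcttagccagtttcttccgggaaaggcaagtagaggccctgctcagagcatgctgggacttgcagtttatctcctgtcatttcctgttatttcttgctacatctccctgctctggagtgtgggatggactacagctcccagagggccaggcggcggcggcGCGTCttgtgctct
Cep85, chr4:134187086-134187335, minus strand: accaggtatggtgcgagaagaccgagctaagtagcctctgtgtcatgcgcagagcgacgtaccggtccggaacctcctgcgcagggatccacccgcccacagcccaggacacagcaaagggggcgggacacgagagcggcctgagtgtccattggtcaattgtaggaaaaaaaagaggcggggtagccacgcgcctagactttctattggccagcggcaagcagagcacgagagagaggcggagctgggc
Cep57, chr9:13827108-13827357, minus strand: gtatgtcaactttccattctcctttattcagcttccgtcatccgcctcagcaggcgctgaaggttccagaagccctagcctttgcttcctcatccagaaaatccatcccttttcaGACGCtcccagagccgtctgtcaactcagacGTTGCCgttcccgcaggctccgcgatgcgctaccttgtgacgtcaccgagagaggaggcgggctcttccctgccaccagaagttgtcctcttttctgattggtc
The Cep112 stretch holds a pair of matches to a looser X-box form, chosen after the data were seen, and none to the stricter forms. The match nearer the start site overlaps an FHL core. In Cep41 an FHL core lies just upstream of an X-box with a middle of 3 bases. The stretches of Cep89 and Cep128 hold FHL cores and no X-box match, that of Cep85 holds neither, and that of Cep57 holds an FHL core and an X-box arm without a peak of any list.

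Rfx3 peaks lay at the most Cep genes and Foxn4 peaks at the fewest. The Rfx3 list bound 14 of 34 Cep genes (41.2%), against 10.6% of all protein-coding genes. The Foxn3 list bound 12 (35.3%), against 8.82% of all genes. The Foxn4 list bound 4 (11.8%), against 4.84%. In each list the share of Cep genes was above the background. The 12 genes with a Foxn3 peak all had an Rfx3 peak, as did the 4 with a Foxn4 peak, so the 14 Rfx3 genes were all of the 34 bound in any list. Among all genes, 85.7% of the Foxn3-bound and 74.8% of the Foxn4-bound were also Rfx3-bound.

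**Figure D1:**
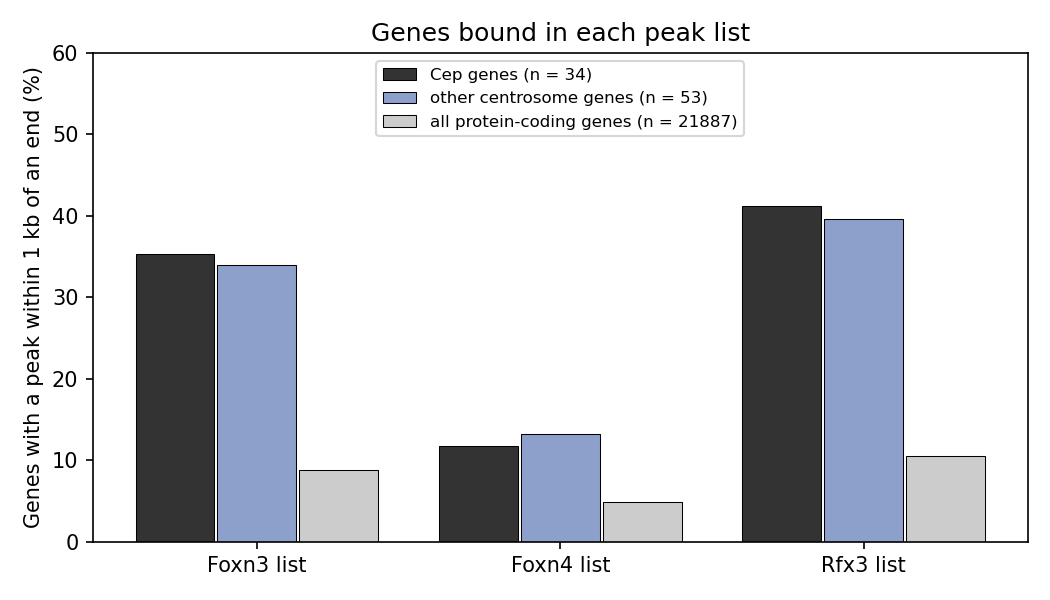
Bars give the percentage of genes with a peak midpoint within 1 kb of an annotated end, for each peak list, in the 34 Cep genes, 53 other centrosome genes and 21887 protein-coding genes. There are no error bars because each antibody has 1 list. The Cep bars stand at 35.3%, 11.8% and 41.2% for Foxn3, Foxn4 and Rfx3, above the bars for all genes at 8.82%, 4.84% and 10.6%.

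By combination, 8 Cep genes had Foxn3 and Rfx3 without Foxn4 (Cep43, Cep89, Cep95, Cep120, Cep126, Cep131, Cep135 and Cep162), 23.5% against 4.5% of all genes. Another 4 had a peak of every list (Cep85, Cep112, Cep128 and Cep170), 11.8% against 3.06%. Cep19 and Cep55 had Rfx3 alone, 5.88% against 2.52%. None of the 34 had Foxn3 alone, Foxn4 alone, Foxn3 and Foxn4 without Rfx3, or Foxn4 and Rfx3 without Foxn3, combinations held by 0.969%, 0.927%, 0.292% and 0.562% of all genes. With so few members, a share of that size corresponds to less than 1 gene.

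The lists carry a score per peak, the authors' own value, which was used here only to place a peak within its list, as the percentage of peaks in the same list with a lower score. Scores are not compared in size between lists.

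Distal appendages dock the centriole at the membrane. Of the 3 Cep genes of this structure, Cep89 was bound and Cep83 and Cep164 were not. That is 33.3% for Foxn3 and for Rfx3, against 8.82% and 10.6% of all genes, and none for Foxn4, against 4.84%. At Cep89 (chromosome 7, 35396999 to 35439830) Foxn3 peaked at 35396771 to 35397152, with a score of 193, above 94.8% of its list. Its Rfx3 peak, at 35396638 to 35397208, had a score of 776, above 97.1% of its list. Both covered the start site, and the Foxn3 peak lay wholly within the Rfx3 peak. Faap24, which is transcribed the other way, begins 231 bp from Cep89, and the midpoints lay 38 and 76 bp from Cep89 and 194 and 156 bp from Faap24. For Cep83, which is needed for the docking step, the nearest peak midpoint of any list lay 66.5 kb from an end. For Cep164, which recruits a kinase that starts ciliogenesis, it lay 184 kb away.

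Subdistal appendages anchor microtubules, and the linker holds the pair of centrioles together. Of 4 Cep genes in this group, Cep128 and Cep170, both of the subdistal appendages, were bound in every list. The linker genes Cep68 and Cep250 were bound in none. That is 50% of the group, against 3.06% of all genes with a peak of every list. At Cep128 (chromosome 12, 90998490 to 91384455) the peaks of all lists covered the start site. The Foxn3 peak, at 91384305 to 91384708, had a score of 28, above 45.7% of its list. The Foxn4 peak, at 91384327 to 91384608, had a score of 7.11, above 44.1%, and the Rfx3 peak, at 91384264 to 91384640, a score of 52, above 33%. All 3 scores were thus below the middle of their lists or, for Foxn4, equal to the list's median of 7.11.

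Cep170 (chromosome 1, 176729072 to 176813979) had the widest peaks among the bound members and lay at a shared stretch between genes. Its Foxn3 peak, at 176814062 to 176814938, was 877 bp wide and scored 121, above 89.3% of its list. The Rfx3 peak, at 176814049 to 176814973, was 925 bp wide and scored 339, above 88.9%. The same stretch held separate Foxn4 peaks, at 176814015 to 176814436 with a score of 7.11 and at 176814585 to 176814848 with a score of 8. Sdccag8, itself a gene of a centrosomal protein, has an annotated end 680 bp away, and its strand was not read. The Foxn3 and Rfx3 midpoints were nearer to Sdccag8 (160 and 149 bp) than to Cep170 (521 and 532 bp). Of the Foxn4 peaks, one lay nearer to Cep170 (246 against 434 bp) and the other nearer to Sdccag8 (56 against 738 bp). The gene to which these peaks belong is therefore uncertain.

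At the base and axoneme of the cilium, 2 of 4 Cep genes had an Rfx3 peak (50%, against 10.6% of all genes). A Foxn3 peak lay at 1 (25%, against 8.82%) and a Foxn4 peak at none, against 4.84%. Cep19, whose product helps start intraflagellar transport at the ciliary base, had an Rfx3 peak alone. That peak (chromosome 16, 32099699 to 32099970) scored 274, above 85.4% of its list, the fourth highest percentage among the members. It covered the start site, with its midpoint 46 bp from Cep19 and 108 bp from the divergent gene Pigx. Cep162, which binds axonemal microtubules, had a Foxn3 peak above 39.7% and an Rfx3 peak above 61.1% of its list. Cep78, mutated in a human cone-rod dystrophy with hearing loss, had its nearest peak midpoint 119 kb from an end.

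Cep41, the remaining gene of that group, needed for glutamylation of ciliary tubulin, was not bound by the rule, because the annotation reaches well past the listed start site. The gene spans 30653457 to 30710517 on chromosome 6, and the listed start site lies inside it, at 30693749. A Foxn3 peak at 30693615 to 30694066, with a score of 220, was above 95.9% of its list. The Rfx3 peak, at 30693428 to 30694644, scored 457, above 92.6%. Both covered that start site, and their midpoints lay 92 and 287 bp upstream of it and 16.7 and 16.5 kb from the nearer gene end. Counted by listed start sites, an alternative chosen after the data were seen, 30 Cep genes could be examined: 12 had a Foxn3 peak, 4 a Foxn4 peak and 14 an Rfx3 peak. Background shares by that rule were 9.67%, 5.29% and 11.6% of 17492 genes. Cep41 was gained there, while Cep120, which is missing from the promoter table, was lost.

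Centriole duplication, assembly and length control held 13 of the Cep genes, of which 4 were bound by Foxn3 and by Rfx3 (30.8%, against 8.82% and 10.6% of all genes) and 1 by Foxn4 (7.69%, near the background of 4.84%). Cep135, a centriole component near the cartwheel, had the strongest peaks. Its Foxn3 peak (chromosome 5, 76588504 to 76588926) scored 97.2, above 85.8% of its list. The Rfx3 peak there, at 76588632 to 76588951, scored 207, above 79.7%. Both covered the start site, with midpoints 16 and 92 bp downstream. Cep85, a partner of Stil in duplication, was bound in every list, always at a low score. At its start site (chromosome 4, 134187085) the Foxn3 peak, at 134186987 to 134187297, scored 16.8, above 19% of its list. There the Foxn4 peak, at 134187040 to 134187373, scored 4.44, above 5.18%, and the Rfx3 peak, at 134186953 to 134187425, scored 28, above 9.75%. Cep43, which forms a complex with Cep350 and Cep19, had Foxn3 above 69.2% and Rfx3 above 33% of their lists. Cep120, needed for centriole elongation, had Foxn3 above 31% and Rfx3 above 29.4%, with both midpoints inside the gene, 956 and 946 bp from its end. Genes of the proteins that recruit Plk4 to start duplication, Cep152 and Cep192, had their nearest peak midpoints 234 and 315 kb from an end. Cep44, Cep57, Cep63, Cep76, Cep97, Cep295 and Cep350 were also unbound.

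Centriolar satellites are granules that carry proteins to the centrosome and cilium. Of 3 Cep genes in this group, 2 had Foxn3 and Rfx3 peaks and none had Foxn4. That is 66.7%, against 4.5% of all genes with Foxn3 and Rfx3 without Foxn4. Cep20, which was unbound, was placed in no role group and is not counted in that share. The gene list of pericentriolar material and satellites used further on names it, as Fopnl, and counting it here would lower the share. A Foxn4 peak lay at 4.84% of all genes. At Cep126 (chromosome 9, 8076460 to 8134479) Foxn3 peaked at 8134375 to 8134653, with a score of 64.5, above 76.8% of its list. Its Rfx3 peak, at 8134332 to 8134662, scored 143, above 71.1%. At Cep131 the peaks stood lower in their lists, above 16.2% for Foxn3 and 24.5% for Rfx3. Cep72 was unbound.

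Cep55 acts in abscission at the end of cell division rather than at the centriole. It had an Rfx3 peak alone, at 38054603 to 38055070 on chromosome 19, which covered both its listed start sites. The peak scored 35, above 17% of its list. Cep19 and Cep55, the genes with Rfx3 alone, thus stood far apart in the Rfx3 list, at 85.4% and 17%.

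Among 6 members placed in no role group (Cep20, Cep70, Cep85l, Cep95, Cep112 and Cep170b), Cep112 and Cep95 were bound. Foxn3 and Rfx3 each bound 33.3% of this group and Foxn4 16.7%, against 8.82%, 10.6% and 4.84% of all genes. Cep112 (chromosome 11, 108425215 to 108860615) had the highest place of all members in the Foxn3 and Rfx3 lists. Its Rfx3 peak, at 108424863 to 108425463, scored 2641, exceeded by a single peak of the list. Its Foxn3 peak, at 108424937 to 108425308, scored 317, above 98.2%, or rank 47 of 2794. The Foxn4 peak there, at 108424932 to 108425245, scored 7.11, the median of that list, and was above 44.1%. No other gene end lay within 1 kb of these peaks. Cep95 was at the other extreme, with a Foxn3 peak above 16.2% and an Rfx3 peak above 0.628% of its list. Their midpoints lay 65 and 58 bp from the start site of Ddx5, an RNA helicase gene that overlaps Cep95, and 2 and 124 bp from that of Cep95. A further Foxn3 peak, above 31% of its list, lay 510 bp downstream of the Cep95 start site and 1.12 kb from the gene end, just past the limit.

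**Figure D2:**
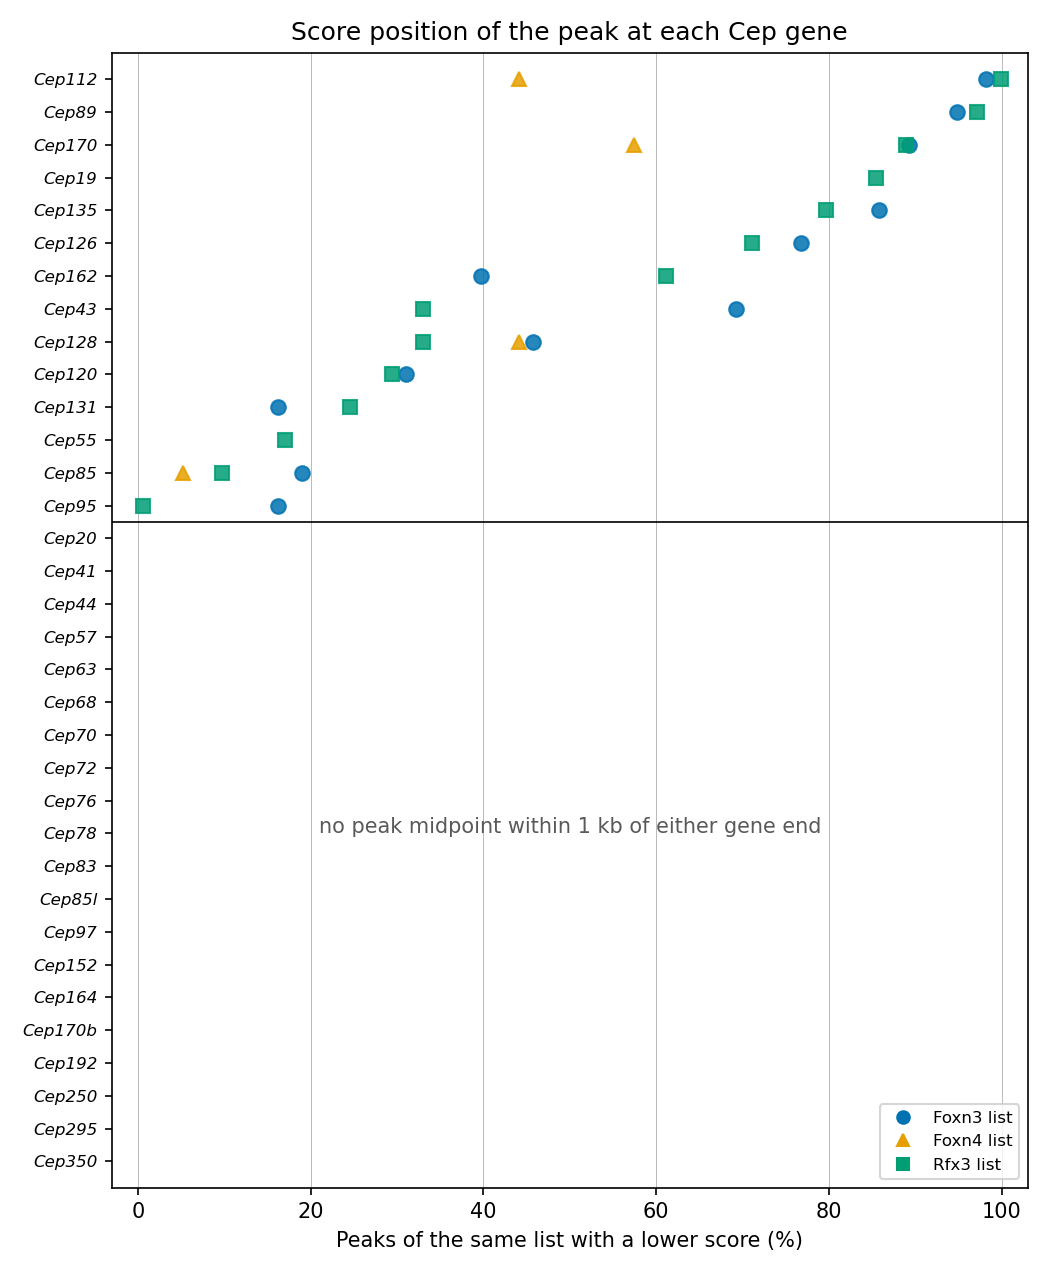
Each row is a Cep gene, and the horizontal axis gives the percentage of peaks in the same list with a lower score, for the highest-scoring peak within 1 kb of an end (circles Foxn3, triangles Foxn4, squares Rfx3). Bound genes are ordered by their Rfx3 value, from Cep112 at 99.9% to Cep95 at 0.628%, and the 20 genes under the line have no such peak.

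The highest Foxn3 peak per bound gene had a median place of 57.5% over 12 members (16.2% to 98.2%), against 53.8% over the 1930 bound genes. For Rfx3 the median was 47% over 14 members (0.628% to 99.9%), against 47.8% over 2329 genes. For Foxn4 it was 44.1% over 4 members (5.18% to 57.4%), the same as over 1059 genes. That is the place of the tied score 7.11, the median of the Foxn4 list, which the peaks at Cep112 and Cep128 share. The equal medians therefore say little. Only Cep112 and Cep89 reached 90% by the gene-end rule, in the Foxn3 and Rfx3 lists (16.7% and 14.3% of bound members, against 13.8% and 13.6% of bound genes), and no member reached it in the Foxn4 list. Places in the Foxn3 and Rfx3 lists ran in nearly the same order over the 12 members with both (Spearman's rho 0.96), and over all 1654 such genes rho was 0.74. Both values describe peaks at shared sites, which are not independent. The gap between the places was widest at Cep43 and Cep162. Cep43 stood higher in the Foxn3 list (69.2% against 33%) and Cep162 higher in the Rfx3 list (61.1% against 39.7%). With peaks at or above the median score of their list, 6 members were bound by Foxn3, 3 by Foxn4 and 7 by Rfx3, against 4.88%, 2.85% and 5.19% of all genes.

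Where Foxn3 and Rfx3 were both at a Cep gene, their peaks overlapped in all 12 cases, each by at least 50% of either peak. Midpoints lay 11 to 122 bp apart, with a median of 43.5 bp. The narrowest gaps were at Cep120 and Cep170 (11 bp), and the widest at Cep95 (122 bp) and Cep43 (108 bp). In 7 of the 12 the Foxn3 peak lay wholly inside the Rfx3 peak. Foxn3 and Foxn4 overlapped at all 4 genes that had both, and midpoints lay 34 bp apart at Cep112, 39 bp at Cep128 and 64 bp at Cep85. At Cep170 the midpoints of the separate Foxn4 peaks lay 274 and 216 bp from the Foxn3 midpoint, and these peaks took up 42.8% and 30.1% of the Foxn3 peak, so only the other 3 genes met an overlap of 50% of each peak. Foxn4 and Rfx3 overlapped at the same 4 genes. Peaks of different lists had to lie near an end of the same gene to be paired, which by itself favours overlap. Overlaps were not counted over all genes, so these values cannot be read as particular to Cep genes.

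Peaks counted at a member had to have their midpoint near an annotated end of the gene, by the calling rule. Their closeness to a start site is therefore partly set by that rule. Distances to start sites were not counted for peaks at all genes, so the values below have no background. Of 31 peaks at member ends, 29 could be placed against a start site of the RefSeq promoter table, and 25 of those had their midpoint within 200 bp of it (median 102 bp, range 2 to 764 bp). The 4 farther ones were those at Cep170. At Cep43, Cep55, Cep85, Cep89, Cep95, Cep112, Cep126, Cep128, Cep131 and Cep170 the midpoints of these peaks lay upstream of the start site, and at Cep19, Cep135 and Cep162 they lay downstream. The strand of Cep120 was not read.

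**Figure D3:**
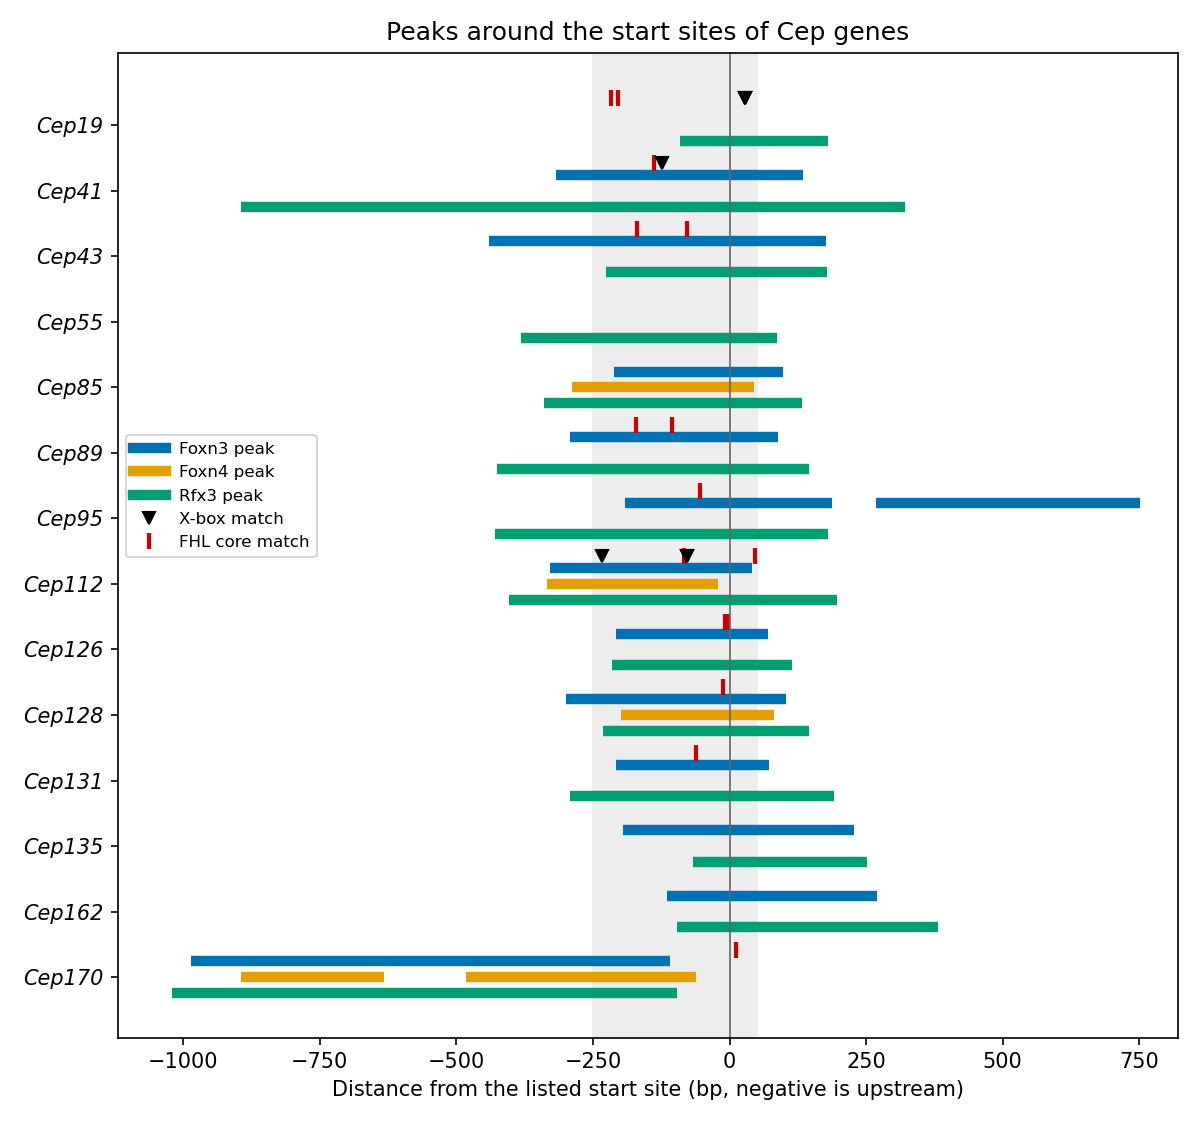
Horizontal bars show the extent of each peak (blue Foxn3, orange Foxn4, green Rfx3) in bp from the listed start site, negative values upstream, for 14 Cep genes with a peak over a promoter window (grey, 250 bp before to 50 bp after); for Cep55 the more upstream of its listed start sites is used. Triangles mark X-box matches, those of the looser form included, and red ticks FHL core matches, both searched only in the grey window. At least 1 peak covers the start site at 13 of the 14 genes, and those of Cep170 end upstream of it.

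Motifs were counted in the 300-base promoter windows of RefSeq (build GRCm38.p6), which hold 36 windows of 30 Cep genes and 21263 windows of all protein-coding genes. Windows of a gene can overlap, and each motif was searched on both strands. A window under a peak is one that any peak overlaps by at least 1 base. The FHL core GACGC was in 11 of 15 Cep windows under a peak (73.3%) and in 10 of 21 under no peak (47.6%). At Cep19 and Cep170, counted as under a peak, every core lay outside the peaks. The windows of Cep19 and Cep55 were under Rfx3 peaks alone. The FHL core was in 33.4% of all windows. Under Foxn3, Foxn4 and Rfx3 peaks its share was 57.5%, 57.1% and 55.2%. Base composition moved with these shares: the median GC content was 64.7% in Cep windows under a peak, 59.3% in those under no peak, 62% in all windows under a peak and 56.3% in all windows. The part of GC content in the FHL counts was not tested. The forkhead core TAAACA was in 1 of 15 Cep windows under a peak (6.67%) and 3 of 21 under no peak (14.3%), against 11.5% of all windows. The match in a window under a peak, at Cep126, lay outside the peaks. Under Foxn3, Foxn4 and Rfx3 peaks the forkhead core was in 7.31%, 5.35% and 7.05% of windows.

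The X-box was searched as GTTNCC followed by GGNAAC, where N is any base, with a middle of 2, 1 or 3 bases between them. These forms are rare: 0.428%, 0.24% and 0.0611% of all windows held them. Under Rfx3 peaks these shares were 3.16%, 0.928% and 0.371%. Under Foxn3 peaks they were 2.68%, 0.971% and 0.457%, and under Foxn4 peaks 0.214%, 0.321% and 0.214%. Among Cep genes the form with 2 middle bases was at Cep19, as GTTGCCTTGGGAAC, starting 22 bases downstream of the start site (chr16:32099811-32099824) and inside the Rfx3 peak. The form with 3 middle bases was at Cep41, as GTTGCCCTTGGCAAC, starting 131 bases upstream of the start site (chr6:30693866-30693880) and inside the Foxn3 and Rfx3 peaks. A looser form, GTNNCC and GNNAC with 3 bases between, was chosen after the data were seen. It takes in every match of the form with 2 middle bases. The looser form was in 4.8% of all windows, 18.1% of those under an Rfx3 peak, 17.1% under a Foxn3 peak and 7.81% under a Foxn4 peak. It was met at different places at Cep112, as GTTACCATAGCAAC (chr11:108425026-108425039) and as GTCGCCATGGCAAC (chr11:108425182-108425195), both inside the peaks of all lists. An FHL core overlaps the latter. Outside peaks the looser form was also at Cep44, as GTAGCCTTGGGAAC, and at Cep83, as GTTTCCCGGGCTAC. The X-box arm GTTGCC lies within the matches at Cep19 and Cep41 and the Cep112 match nearer the start site, but not within the others named. It was in 4 of 15 Cep windows under a peak (26.7%) and 5 of 21 under no peak (23.8%). The arm was in 12.6% of all windows, 27% of those under an Rfx3 peak, 26.5% under a Foxn3 peak and 15.9% under a Foxn4 peak. Its windows under no peak were those of Cep57, Cep97, Cep164 and Cep170b. The X-box arm and the looser form were thus met at bound and at unbound Cep genes. At Cep85, Cep135 and Cep162 none of the letters searched was in the window, which peaks overlapped in whole or in part.

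**Figure D4:**
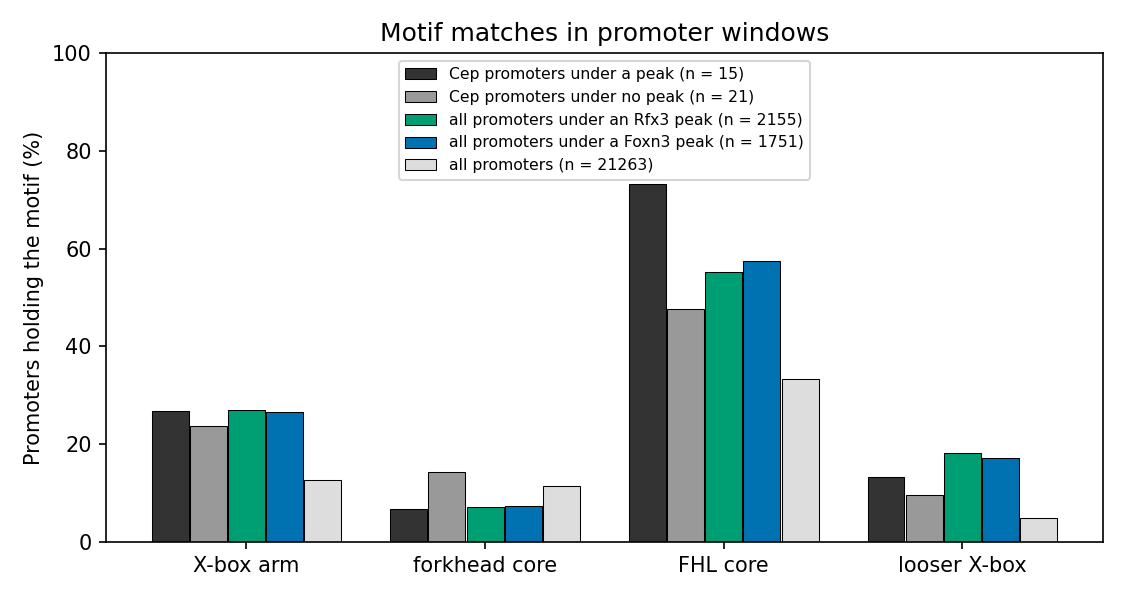
Bars give the percentage of promoter windows that hold a motif on either strand, for Cep windows under a peak (15) and under no peak (21), all windows under an Rfx3 peak (2155) or a Foxn3 peak (1751), and all windows (21263). For the FHL core the Cep bars stand at 73.3% and 47.6%, and for the X-box arm at 26.7% and 23.8%.

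None of the 20 unbound Cep genes had a peak midpoint of any list within 5 kb of an end, so widening the limit to 5 kb added no member. Over all genes that widening took the shares from 8.82% to 11.6% (Foxn3), 4.84% to 6.65% (Foxn4) and 10.6% to 14.1% (Rfx3). Rises of that size correspond to few of 20 genes, so gaining none does not set the Cep genes apart. Distances to the nearest peak were not counted over all genes. The nearest midpoint lay 16.5 kb away at Cep41, 17.4 kb at Cep63 and 25.8 kb at Cep68, and over 100 kb away at 12 of the 20, up to 743 kb at Cep44. Apart from Cep41, no unbound Cep gene had a peak inside it. Bound members spanned 8.28 to 435 kb with a median of 57.5 kb, and unbound members 19 to 142 kb with a median of 40.5 kb. The paralogs Cep170b and Cep85l were unbound, while Cep170 and Cep85 were bound in every list by the rule. That contrast is limited, because the Cep170 peaks may belong to Sdccag8 and the Cep85 peaks all had low scores.

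Other genes of the centrosome were counted from 3 lists of proteins that share these structures, 53 genes in all. Foxn3 bound 18 of them (34%), Foxn4 7 (13.2%) and Rfx3 21 (39.6%), against 8.82%, 4.84% and 10.6% of all genes and 35.3%, 11.8% and 41.2% of the Cep genes. No list had a peak at 30 of the 53, where 87.2% of all genes were in no list. Among 20 genes of centriole duplication, 8 had a Foxn3 peak (40%, against 8.82% of all genes), 3 a Foxn4 peak (15%, against 4.84%) and 8 an Rfx3 peak (40%, against 10.6%). Ccp110, whose product caps the centriole together with Cep97, had Foxn3 above 78% and Rfx3 above 86.6% of their lists. Plk4, the kinase that starts duplication, and Sass6, the cartwheel protein, were unbound, as were Cep152 and Cep192. Among 14 appendage and linker genes, 7 had Foxn3 (50%), 3 Foxn4 (21.4%) and 6 Rfx3 (42.9%), against the same backgrounds of 8.82%, 4.84% and 10.6%. Nek2, a kinase that releases the linker, stood above 99.4% of Foxn3 peaks and 99.2% of Rfx3 peaks, while the linker genes Cep68 and Cep250 were unbound. Sclt1, a distal appendage gene, had a peak of every list. In the group of 19 genes of the pericentriolar material and satellites, 3 had Foxn3 (15.8%, against 8.82%), 1 had Foxn4 (5.26%, near the 4.84% of all genes) and 7 had Rfx3 (36.8%, against 10.6%). Pcm1, the scaffold of the satellites, was bound in every list, above 31% (Foxn3), 5.18% (Foxn4) and 40.9% (Rfx3).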

How the data were processed

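Binding was measured by CUT&RUN in retina of CD-1 mouse embryos. The authors deposited 1 peak list per antibody, on build mm10 per the file headers, with a score per peak whose scaling is not given in the sources used here. The submitters' processing notes name cutadapt, Bowtie2, UMI-tools, bedtools and SEACR, with no roles or versions. Genes and promoters came from RefSeq tables of GRCm38.p6, the same assembly. Peak starts were converted to count from 1. A gene was bound when a peak midpoint lay within 1 kb of either end, and peaks overlapped when they shared at least 1 bp. Python 3.11.15 was used, and the caller was tested on simulated peaks. Shares are set beside the share of all 21887 genes, with no test, because each antibody has 1 list. Members and lists were chosen with earlier results of these data known. The symbol Rootletin matched no gene, and Fopnl, an older name of Cep20, was counted as a member. Of 34 members, 30 are in the promoter table. Another 2 genes of the symbol pattern are not reported here. Named genes are all bound members, in full where bound in every list, in 1 list only or among the 5 highest places in the Foxn3 or Rfx3 list.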

Additional observations from a re-analysis of the deposited data

How the results depend on the processing

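Alternatives were limits of 500 bp and 5 kb, peaks at or above the median score of their list, the nearest peak edge in place of the midpoint, peaks with no other gene end within 1 kb, Foxn4 peaks of at least 150 bp, overlap of at least 50% of each peak, and listed start sites in place of gene ends (chosen after the data were seen). With peaks at or above the median score, Foxn3-bound Cep genes went from 12 to 6 and Rfx3-bound from 14 to 7. Cep genes bound in every list went from 4 to 2 and those with Foxn3 and Rfx3 without Foxn4 from 8 to 3. Over all genes, these shares went from 8.82% to 4.88%, 10.6% to 5.19%, 3.06% to 0.809% and 4.5% to 2.96%. That setting drops the lower-scoring peaks by construction. The other values stayed within 1.5 times the main count. No paired analysis was possible because each antibody has a single list and no list carries replicates, and leaving out a library was not possible for the same reason. Depth per library is unknown, so absence of a peak is not absence of binding.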
